A study of Rattus norvegicus with 20 samples.

Results

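The rats with surgically induced reflux esophagitis were set as a whole against rats that had a sham operation, and the changes from sham that had the same sign in every operated group were described. Reflux esophagitis is inflammation of the esophagus caused by backflow from the stomach. Of the 20 arrays of whole blood, 16 came from operated rats, chosen by their titles, and 4 from sham rats, with 1 array for each rat. The operated rats were Wistar rats in 4 groups of 4: untreated; STW5 at 0.5 ml/kg; STW5 at 2 ml/kg; and the drug omeprazole, 30 mg/kg. STW5 is a liquid mixture of medicinal plant extracts, and omeprazole is a proton pump inhibitor that lowers gastric acid. The drugs were given for 7 days before the operation and for 10 days after it, when the animals were killed, and for the sham rats the labels name no drug. Blood was drawn into tubes that stabilise RNA. The titles, the design text and the authors' deposited value table do not assign the doses of STW5 the same way. The titles were followed, and an average over the 4 operated groups does not depend on which dose is which. The labels give no age or sex. By treatment, untreated against sham differs in the operation alone, whereas the other operated groups differ from sham in the operation and a drug.

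Inflammation in a tissue is commonly mirrored in blood: cytokines and growth factors release neutrophils from the bone marrow, and stress hormones move lymphocytes out of the circulation. Whole blood RNA is a mixture from neutrophils, monocytes, lymphocytes, platelets and reticulocytes, the young red cells that still hold globin RNA. In such a mixture, fewer cells of a type and less RNA per cell cannot be told apart. The tissue label was borne out by the markers, since globin genes, Alas2, Ptprc, S100a8, Cd3e and Pf4 were well above background on all 20 arrays.

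Levels are log2 values of a probe's signal relative to the 75th percentile of its array, so that a level of 0 equals that percentile and a difference of 1 is a doubling. The percentile was 65.3 to 232 with a median of 135 in operated rats and 85.2 to 141 with a median of 93 in sham rats. The share of probes whose signal was well above background ran from 43.1% to 57.5%. The number of arrays limits the precision: the standard error (SE) of the average change had a median of 0.27. Untreated and sham arrays lay on slide 1, both STW5 groups on slide 2 and omeprazole on slide 3, so the difference of the treated groups from sham and the slide cannot be told apart, and only untreated against sham was measured within a slide. On slide 1 all sham arrays lay in row 1 and all untreated arrays in row 2, so row and operation cannot be told apart there.

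Untreated rat 1 lay close to sham, and untreated rat 2 lay apart from all other arrays. Across genes, which are not independent replicates, the array of untreated rat 1 correlated with the sham arrays at 0.977 to 0.992, as closely as these did with each other (0.975 to 0.986), and with the other untreated arrays at only 0.903 to 0.934. The array of untreated rat 2 correlated with the rest at 0.877 to 0.943. STW5 0.5 ml/kg rat 1 was also close to sham, with a mean correlation of 0.98, against 0.984 for untreated rat 1. The array nearest to it was sham rat 4 (0.982). The results are therefore given with all arrays and, where it matters, without untreated rat 1. Leaving out an operated array because it lies close to sham favours a larger difference, so those values are a description.

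No gene passed in operated against sham. In limma with Benjamini-Hochberg adjustment over the 15232 genes tested (0% called at an adjusted p below 0.05), the smallest adjusted p was 0.144. At an unadjusted p below 0.05 there were 1004 genes with a higher average in operated rats (6.59% of those tested) and 957 with a lower one (6.28%). The median change of all genes was -0.08 on the log2 scale. A total of 5419 genes (35.6%) had 1 sign in all 4 operated groups, 2468 of them higher than sham (16.2%) and 2951 lower (19.4%). All 4 comparisons use the same 4 sham rats, so a sham value that is high or low by chance enters all of them. No gene passed in each of the 4 comparisons. Group by group, 2 genes passed in untreated rats (0.0131%), none with either dose of STW5 (0% each) and 723 with omeprazole (4.75%), 146 of them higher and 577 lower than sham. At an unadjusted p below 0.05 the counts were 1717 genes with STW5 0.5 ml/kg and 1884 with STW5 2 ml/kg.

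Without untreated rat 1, 246 genes rose (1.62%) and 68 fell (0.446%) in the remaining operated rats against sham, and 245 and 57 of them had 1 sign in all 4 groups. Leaving out any other single array gave no passing gene.

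Of the 6 genes with a shared higher level and the smallest p, in the average of all groups none passed, each at an adjusted p of 0.144 in limma. Clec7a encodes dectin-1, a myeloid receptor for fungal beta-glucans. Its level was -1.02 at the lowest, 0.76 at the median and 1.44 at the highest of the 16 operated rats, against -1.27, -0.97, -1.19 and -1.08 in the sham rats. Of the operated rats 15 lay above all sham rats, and untreated rat 1, at -1.02, lay among them. The average change was 1.75 ± 0.35 (SE), a 3.37-fold higher mean, and the 4 groups were close to each other at 1.69 in untreated, 1.72 in STW5 0.5 ml/kg, 1.82 in STW5 2 ml/kg and 1.77 in omeprazole rats. Without untreated rat 1 it was 1.88 (adjusted p = 0.00652 in limma). The array probe is shown because the shared higher gene with the smallest p rests on it alone, and it lies at chr4:166725168-166725227, minus strand, on rn4 in the scanner files.
Clec7a: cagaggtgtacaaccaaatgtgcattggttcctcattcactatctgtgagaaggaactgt

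Prok2 encodes prokineticin 2, a small secreted chemoattractant that neutrophils produce. Its level was -1.47 at the lowest, 0.05 at the median and 1.71 at the highest of the 16 operated rats, against -2.61, -2.20, -1.67 and -2.18 in the sham rats. All 16 operated rats lay above all sham rats, the lowest being untreated rat 1. The average change was 2.31 ± 0.46 (SE), a 4.94-fold higher mean, with 2.67 in untreated, 2.24 in STW5 0.5 ml/kg, 2.26 in STW5 2 ml/kg and 2.06 in omeprazole rats. Without untreated rat 1 it was 2.47 (adjusted p = 0.0111 in limma).

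Pla2g7 encodes the platelet-activating factor acetylhydrolase, an enzyme that inactivates an inflammatory lipid. Its level was 2.17 at the lowest, 3.93 at the median and 4.81 at the highest of the 16 operated rats, against 2.09, 2.59, 1.98 and 2.32 in the sham rats. Untreated rat 1 alone among the operated rats lay within the sham range, and the average change was 1.61 ± 0.34 (SE). Gk, glycerol kinase, had the same array within the sham range and an average change of 1.48 ± 0.32 (SE). A second Gk probe that passed the filter gave 0.89. Sgms2, sphingomyelin synthase 2, had an average change of 1.87 ± 0.40 (SE), but only 1 sham array was well above background for it, and untreated rat 1 and STW5 2 ml/kg rat 4 overlapped with sham. Mogat2, an acyltransferase of triglyceride synthesis, had 1.36 ± 0.30 (SE). Its size differed among the operated groups, with 0.64 in untreated, 2.26 in STW5 0.5 ml/kg, 0.87 in STW5 2 ml/kg and 1.68 in omeprazole rats (adjusted p = 0.0258, moderated F test of limma).

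The 6 genes with a shared lower level and the smallest p (adjusted p = 0.144 in limma for each) include 3 genes of the dividing cell. Cdc45, a part of the helicase that unwinds DNA in replication, had a level of -0.69 at the lowest, 0.01 at the median and 0.93 at the highest of the 16 operated rats, against 1.45, 0.94, 0.69 and 1.08 in the sham rats. Of the operated rats 15 lay below all sham rats and untreated rat 4 lay among them. The average change was -0.99 ± 0.24 (SE), with -0.96 in untreated, -0.86 in STW5 0.5 ml/kg, -0.89 in STW5 2 ml/kg and -1.24 in omeprazole rats, and -1.01 (adjusted p = 0.0386 in limma) without untreated rat 1. Asf1b, a histone chaperone of the replication fork, had -1.72 ± 0.41 (SE), and Cdca2, which recruits a phosphatase to chromatin at the end of mitosis, had -1.67 ± 0.37 (SE). For each of these, 14 of 16 operated rats lay below all sham rats. In the comparison of omeprazole with sham all 3 fell, Cdc45 by 1.24, Asf1b by 2.05 and Cdca2 by 1.78 (adjusted p = 0.0159, 0.0244 and 0.0331 in limma). Cdca2 was well above background on only 5 operated arrays, against all 4 sham arrays.

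For RT1-T24-4 and Glul, 1 group carried most of the average. RT1-T24-4, a rat MHC class I gene, was at -0.14, -0.85, -0.49 and -0.58 in omeprazole rats, against 4.08, 3.72, 3.45 and 4.07 in sham rats. The change was -4.34 with omeprazole (adjusted p = 2.1e-07 in limma), and the other operated groups averaged -0.72 to -0.36 against sham and overlapped with it. Glul, glutamine synthetase, fell by 2.53 with omeprazole (adjusted p = 8.45e-07 in limma), against -0.14, -0.21 and -0.66 in untreated, STW5 0.5 ml/kg and STW5 2 ml/kg rats. The probes of these genes hold 30.0% and 23.3% G and C, against a median of 45.0% over all genes tested. The median was also 45.0% over the 577 genes that fell and over the 146 that rose with omeprazole. A part of probe composition in these changes was not tested. Timmdc1, needed to assemble complex I in mitochondria, was lower in each group, with -1.46 in untreated, -0.59 in STW5 0.5 ml/kg, -1.22 in STW5 2 ml/kg and -0.54 in omeprazole rats, and is 1 of the 2 genes that fell in untreated rats (adjusted p = 0.0475 in limma); the other is a probe without a gene symbol, at -2.63. Its size differed among the operated groups (adjusted p = 0.0334, moderated F test).

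**Figure D1:**
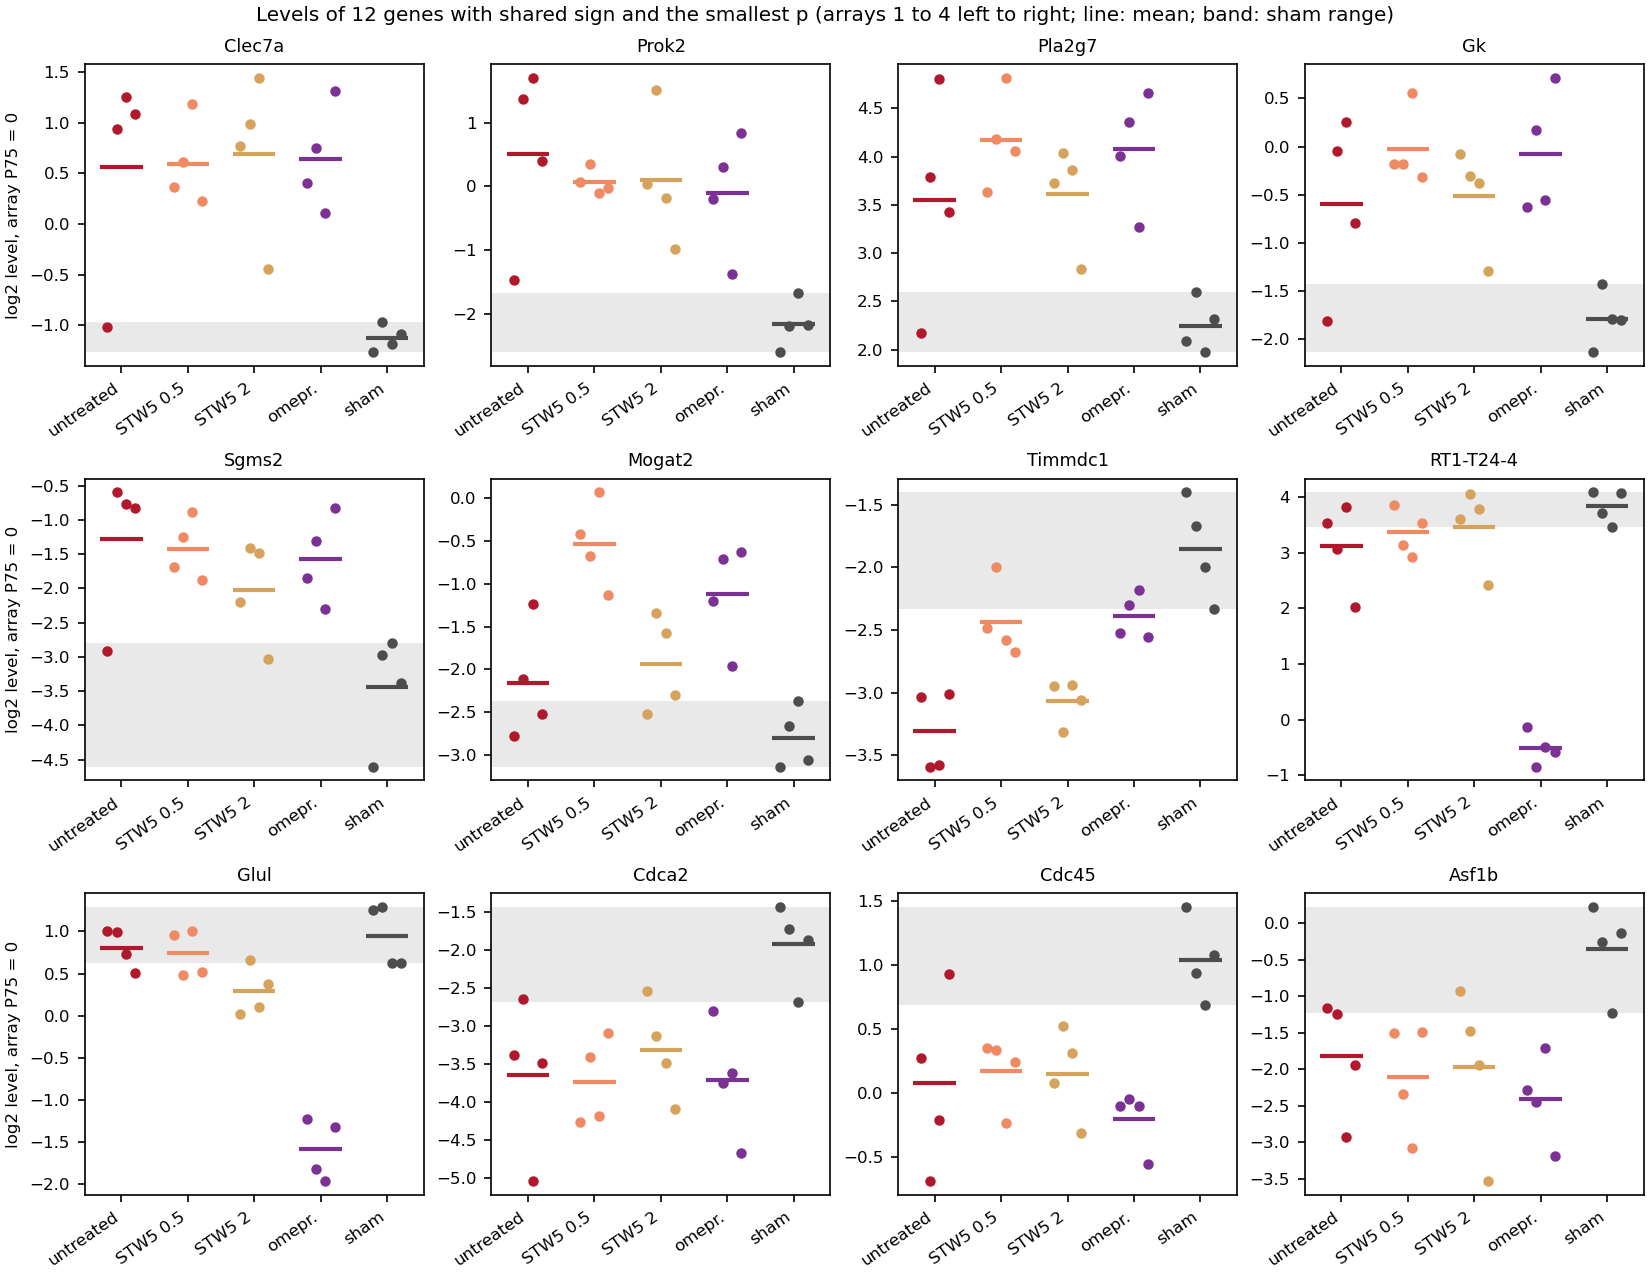
Levels of the 12 genes in each array, on a log2 scale relative to the array's 75th percentile; points are arrays 1 to 4 of a group from left to right, lines are group means and the grey band is the range of the sham arrays. For Clec7a, Prok2, Pla2g7 and Gk nearly all operated arrays lie above the band while untreated rat 1 lies in or near it, and RT1-T24-4 and Glul are set apart by the omeprazole arrays.

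**Figure D2:**
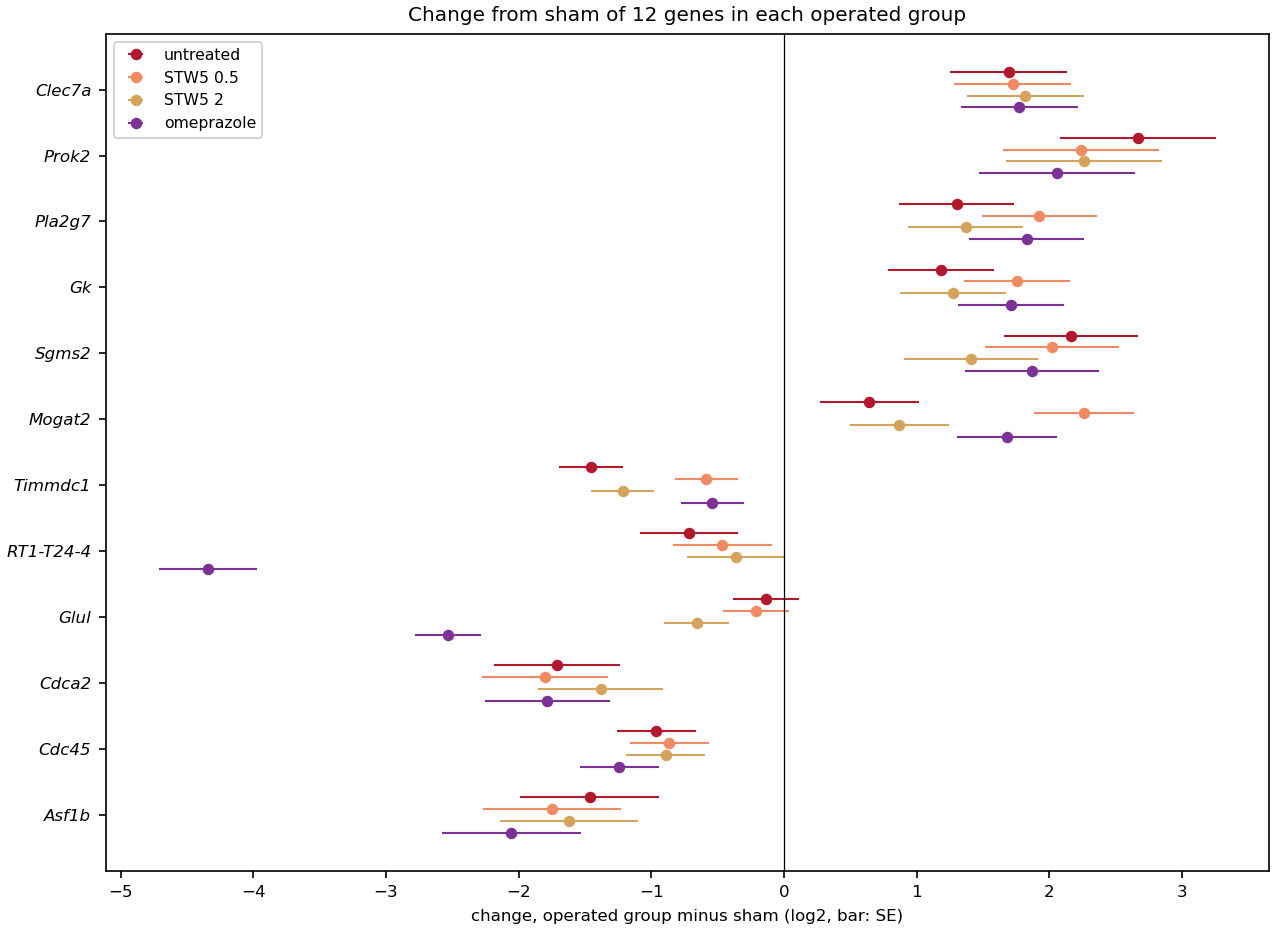
Change from sham of the same 12 genes in each operated group, as log2 differences with standard errors (bars), from 1 fit to all arrays; the 4 groups share the sham arrays. Clec7a, Prok2, Cdca2, Cdc45 and Asf1b have similar values in all 4 groups, whereas omeprazole is far from the others for RT1-T24-4 (-4.34) and Glul (-2.53).

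A stricter view of a shared change is that no operated rat overlaps with any sham rat. This held for 16 genes above sham (0.105% of those tested) and 2 below (0.0131%), of which 12 have a symbol and are named here after their values were seen. None passed the adjusted threshold with all arrays. Gadd45b, a stress-response gene of the immediate early list, was 1.34 at the lowest, 1.84 at the median and 2.75 at the highest of the 16 operated rats, against 1.15, 0.85, 1.15 and 1.04 in the sham rats, an average change of 0.95 ± 0.24 (SE). Cd200r1, an inhibitory receptor of myeloid cells, was -1.52 at the lowest, -1.0 at the median and 0.51 at the highest of the 16 operated rats, against -2.18, -1.57, -1.92 and -1.88 in the sham rats, an average change of 1.03 ± 0.26 (SE). Slc38a7, a lysosomal glutamine transporter, had 1.05 ± 0.29 (SE), and Baz1a, a subunit of a chromatin remodeller, 0.74 ± 0.25 (SE). Cpne8, a copine, and Akap7, an anchor of protein kinase A, were not well above background on any sham array, and 11 of 16 operated arrays measured each. Their means were at least 3.70-fold and at least 2.14-fold higher in operated rats, where each sham array was set to its dimmest signal well above background unless the probe itself was brighter. Genes with no sham array well above background, here and below, passed the filter through operated arrays alone. The filter thus favours a higher level for them, and their direction is only a description. Normexp correction, here and below, added an offset of 50 to each signal. An added offset makes log2 changes of dim probes smaller, and with the correction the changes of Prdm1, Flt3 and Clock also turned sign. The cause of the turned signs was not tested, and the size of changes in dim genes depended on the background correction. With normexp correction the fitted changes were 0.26 for Cpne8 and 0.08 for Akap7. A second Cpne8 probe gave a change of 0.99. Wdfy1 (0.86), Reep3 (0.80) and Sypl1 (0.56) were the others above sham.

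Below sham in every operated rat were Atg12, a conjugated protein of autophagosome formation, and the zinc finger protein gene Zpr1. Atg12 was -3.64 at the lowest, -2.32 at the median and -1.89 at the highest of the 16 operated rats, against -1.75, -1.56, -1.77 and -1.89 in the sham rats, an average change of -0.71 ± 0.26 (SE, adjusted p = 0.272 in limma). Zpr1 was -2.04 at the lowest, -1.51 at the median and -1.13 at the highest of the 16 operated rats, against -0.94, -0.84, -1.11 and -0.98 in the sham rats, an average change of -0.52 ± 0.16 (SE, adjusted p = 0.19 in limma). In both genes the gap between the nearest operated and sham rats was small beside the spread of the operated rats.

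Mature neutrophil markers had the largest median of the 22 lists. Of 29 members tested, 23 were higher than sham in all 4 operated groups and 1 lower, and 18 were higher at an unadjusted p below 0.05. The share higher in all groups was 79.3%, against 16.2% of all genes tested, of which 6.59% were higher at an unadjusted p below 0.05. The median change was 0.92, against -0.08 over all genes tested, and by group it was 0.99 in untreated, 1.36 in STW5 0.5 ml/kg, 0.45 in STW5 2 ml/kg and 1.20 in omeprazole rats. No member passed with all arrays in limma. Without untreated rat 1, 11 rose and none fell, against 1.62% and 0.446% of all genes tested, and the median was 0.99.

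Cxcr2, the chemokine receptor that draws neutrophils into tissue, had the smallest p of the list, at 1.64 ± 0.36 (SE), with 1.41 in untreated, 1.79 in STW5 0.5 ml/kg, 1.50 in STW5 2 ml/kg and 1.85 in omeprazole rats. It lay above all sham rats in 15 of 16 operated rats, all but untreated rat 1. Lrg1, a glycoprotein of neutrophil granules, was at 1.49 ± 0.34 (SE), and Csf3r, the receptor for the growth factor G-CSF, at 1.25 ± 0.34 (SE). The decoy receptor of IL-1, Il1r2, was at 1.63 ± 0.54, the peptidoglycan-binding granule protein gene Pglyrp1 at 1.39 ± 0.39 and Padi4, an enzyme of chromatin release from neutrophils, at 1.42 ± 0.37 (SE). Subunits of the phagocyte oxidase were at 0.90 for Ncf4, 0.82 for Cyba and 0.82 for Ncf1. Cybb, another subunit, was at 0.31, with -0.39 in STW5 2 ml/kg rats. The 3 members with a lower average were Fcgr3a at -0.54, lower in all 4 groups, Selplg at -0.26 and Mmp25 at -0.02. The integrin gene Itgam was at 1.10, Mmp9 at 1.28 and S100a9 at 0.96.

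The list score, the mean over members of the level minus each gene's mean, corrected for the array's median over all genes, was -1.16 at the lowest, 0.14 at the median and 1.49 at the highest of the operated rats, against -1.14, -0.56, -0.78 and -0.69 in the sham rats. It lay above all sham rats in 14 of 16 operated rats. The exceptions were untreated rat 1, at -0.85, and STW5 2 ml/kg rat 4, at -1.16, below all sham rats. Untreated rat 2, at 1.49, was the highest. Granule and precursor genes, which mark immature neutrophils, were less uniform: 3 of 13 were higher in all 4 groups (23.1%, against 16.2% of all genes tested), with a median of -0.02 in untreated rats within slide 1 and 0.49 on average, or 0.31 without untreated rat 2. Chi3l1, a chitinase-like protein gene, had 0.98 ± 0.38 (SE, adjusted p = 0.301 in limma) and Anxa1, annexin A1, 1.10 ± 0.47 (SE, adjusted p = 0.335).

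**Figure D3:**
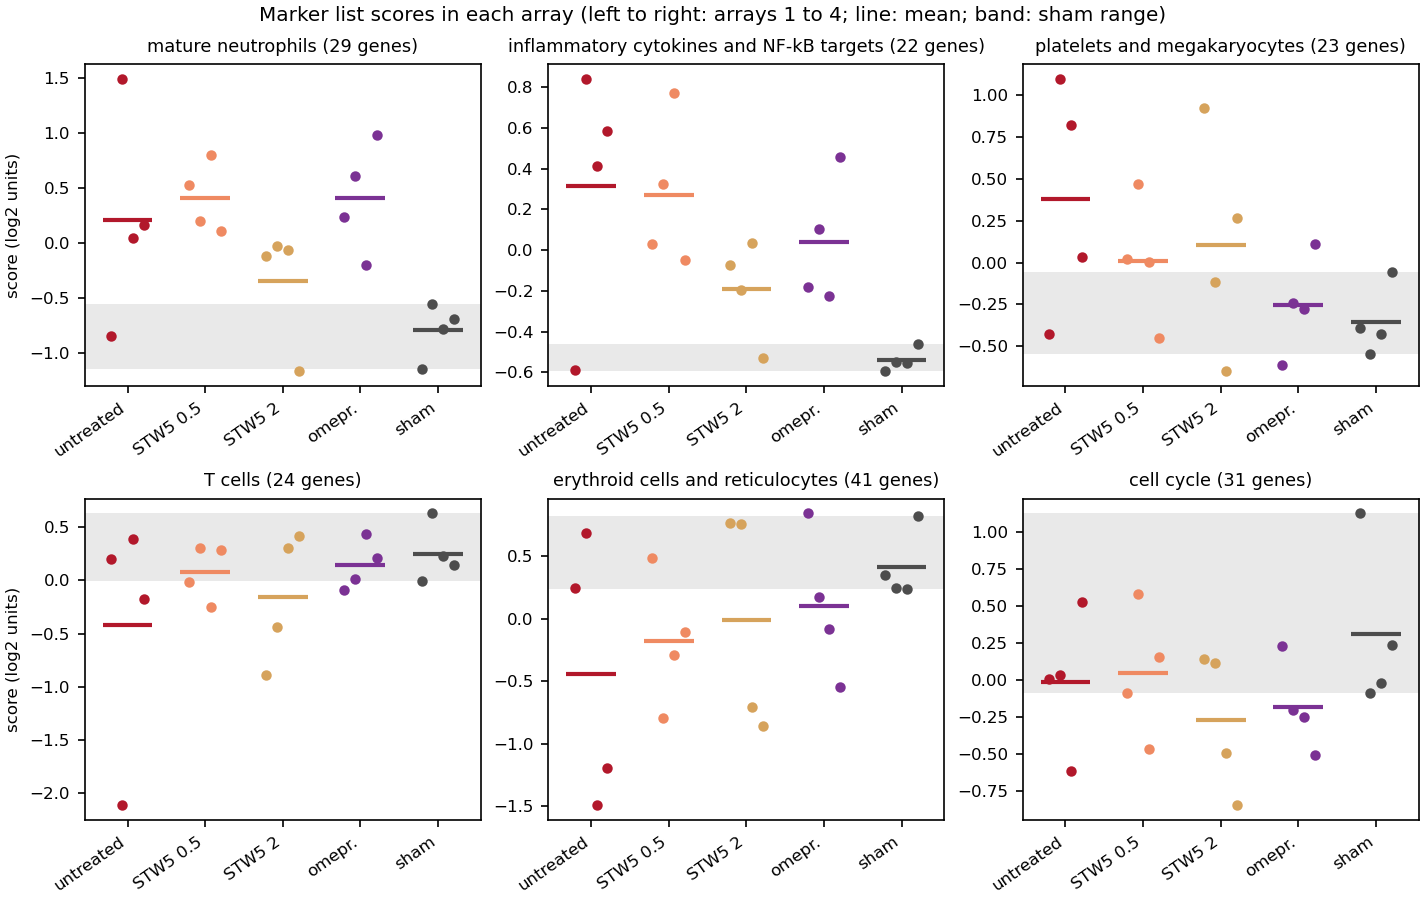
Scores of 6 gene lists in each array, in log2 units around the mean of all arrays; points are arrays 1 to 4 of a group from left to right, lines are group means and the grey band is the range of the sham arrays. Mature neutrophil and inflammatory scores lie above the band in 14 of 16 operated arrays, while the T cell, erythroid and cell cycle scores overlap with it.

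Promoters of 3 members of the neutrophil list are shown because their genes lay above sham in all 4 groups and because the stretch holds, on at least 1 strand, the letters GAGGAA, the core bound by PU.1, a transcription factor of myeloid cells. They span 250 bases before to 50 after the gene start, from RefSeq on GRCr8, in the direction of the gene, with the core on either strand (GAGGAA or TTCCTC) in capitals. Csf3r lies at chr5:143582970-143583269, plus strand, Itgam at chr1:192089342-192089641, plus strand and Pglyrp1 at chr1:87659613-87659912, plus strand.
Csf3r: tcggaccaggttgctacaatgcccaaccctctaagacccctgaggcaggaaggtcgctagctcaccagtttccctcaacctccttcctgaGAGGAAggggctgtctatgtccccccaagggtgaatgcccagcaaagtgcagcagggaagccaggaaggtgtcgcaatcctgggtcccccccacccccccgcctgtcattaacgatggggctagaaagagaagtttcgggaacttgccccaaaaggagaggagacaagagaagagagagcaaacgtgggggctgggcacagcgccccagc
Itgam: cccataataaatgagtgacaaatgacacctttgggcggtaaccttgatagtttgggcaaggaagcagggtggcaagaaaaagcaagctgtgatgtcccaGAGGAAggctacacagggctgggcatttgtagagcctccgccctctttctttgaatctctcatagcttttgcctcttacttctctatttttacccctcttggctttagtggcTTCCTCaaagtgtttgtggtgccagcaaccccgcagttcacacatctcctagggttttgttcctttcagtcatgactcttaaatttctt
Pglyrp1: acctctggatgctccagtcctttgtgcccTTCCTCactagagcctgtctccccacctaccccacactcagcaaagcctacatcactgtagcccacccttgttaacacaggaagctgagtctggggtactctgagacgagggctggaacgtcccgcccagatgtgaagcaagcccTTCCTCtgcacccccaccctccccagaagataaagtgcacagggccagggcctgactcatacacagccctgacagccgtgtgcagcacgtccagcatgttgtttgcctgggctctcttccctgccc
Of the neutrophil list, 18 members had a promoter in the RefSeq table, and 10 of these (55.6%) held the core on at least 1 strand, against 27.5% of all 27457 promoters of that length. Of the 6 genes with the smallest p in each direction, 5 had a promoter there. The core was in 1 of 5 for the higher genes and in 3 of 5 for the lower genes. Whether the core goes with a change from sham was not tested. A match describes letters and not a bound site.

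Cytokines and other targets of NF-kB lay on the same side of sham as the neutrophil genes. Of 22 members tested, 13 were higher in all 4 groups and none was lower in all of them (59.1% and 0%, against 16.2% and 19.4% of all genes tested), with a median of 0.50 against -0.08 over all genes, and 9 were higher at an unadjusted p below 0.05. None passed with all arrays, and 7 rose without untreated rat 1, as did 1.62% of all genes tested. Il1b, the cytokine IL-1β, had 1.25 ± 0.30 (SE), with 0.43 in untreated, 1.86 in STW5 0.5 ml/kg, 1.14 in STW5 2 ml/kg and 1.57 in omeprazole rats, and the untreated mean was the lowest of the groups. Nlrp3, the sensor of the inflammasome that processes it, had 1.41 ± 0.34 (SE), with 1 of 4 sham arrays well above background. The IL-1 receptor antagonist gene Il1rn was at 1.07 ± 0.33, the cytokine genes Tnf and Csf1 at 1.05 ± 0.37 and 1.65 ± 0.47, and the feedback inhibitor Socs3 at 0.94 ± 0.26 (SE). The list score was -0.59 at the lowest, 0.03 at the median and 0.84 at the highest of the operated rats, against -0.59, -0.55, -0.56 and -0.46 in the sham rats, and 14 of 16 operated rats lay above all sham rats. Mature neutrophil markers moved with it, with a score of -1.16 to 1.49 in operated rats against -1.14 to -0.56 in sham rats, and their part in the values of inflammatory, immediate early, glucocorticoid-induced, eicosanoid and glycolysis genes was not tested. No defining neutrophil marker was at 0, since S100a8, S100a9 and Csf3r were well above background on all arrays.

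Immediate early genes, the transcription factors and phosphatases induced within minutes of a stimulus, had 11 of 29 members higher in all 4 groups and 1 lower, with a median of 0.29. The share higher in all groups was 37.9%, against 16.2% of all genes tested. No member passed with all arrays, and 6 rose without untreated rat 1, as did 1.62% of all genes tested. Jun had 1.68 ± 0.40 (SE), with 2.34 in untreated, 1.41 in STW5 0.5 ml/kg, 1.53 in STW5 2 ml/kg and 1.44 in omeprazole rats, and 1.86 (adjusted p = 0.00514 in limma) without untreated rat 1, the smallest adjusted p of all genes there. Junb had 1.13 ± 0.28 (SE), and Rgs2, a brake on G protein signalling, 1.01 ± 0.26 (SE). Glucocorticoid-induced genes had 10 of 21 higher in all 4 groups (47.6%, against 16.2% of all genes tested), 3 lower and a median of 0.36. Cebpd, a transcription factor of myeloid cells, had 1.50 ± 0.35 (SE), Sgk1, a kinase of salt balance, 1.00 ± 0.30 (SE), and Fkbp5, a chaperone of the glucocorticoid receptor, 0.83 ± 0.35 (SE). The 3 members lower in all 4 groups were Ddit4 at -0.77, Per1 at -0.62 and Map3k6 at -0.20. Untreated rat 2 had a glucocorticoid list score of 1.88, far above the next operated rat, and without it the median of that list was 0.25. Without sham rat 1 it was 0.22.

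Eicosanoid genes, which make and sense the lipid mediators of inflammation, as a list had a median of only 0.02. Of 21 members, 8 were higher in all groups and 2 lower (38.1% and 9.52%, against 16.2% and 19.4% of all genes tested). The median was 0.00 to 0.15 when 1 array at a time was left out, with the highest value without untreated rat 3 and the lowest without STW5 0.5 ml/kg rat 4. After Pla2g7, the members with the highest values belong to leukotriene synthesis. Alox5, the enzyme that opens leukotriene synthesis, had 1.47 ± 0.37 (SE, adjusted p = 0.144 in limma), and Alox5ap, which presents the substrate to it, had 1.28 ± 0.37 (SE). Tbxas1, thromboxane synthase, was at 0.85, and the leukotriene receptor gene Ltb4r at 0.78. Alox15, the lipoxygenase of eosinophils, was at -0.94 and lower in all 4 groups.

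Glycolysis and hypoxia genes had 18 of 34 members higher in all 4 groups and 3 lower (52.9% and 8.82%, against 16.2% and 19.4% of all genes tested). The median was 0.41 on average, and by group it was 0.52 in untreated, 0.31 in STW5 0.5 ml/kg, 0.14 in STW5 2 ml/kg and 0.43 in omeprazole rats. None passed with all arrays, and 4 rose without untreated rat 1, as did 1.62% of all genes tested. Hk3, the hexokinase of leukocytes, was at 1.89 ± 0.62 (SE), with 2 of 4 sham arrays well above background. Hk2, another hexokinase, and Vegfa, a growth factor of vessels, were not well above background on any sham array. Of 16 operated arrays, 9 measured Hk2 and 14 Vegfa. Their means were at least 2.40-fold and at least 2.46-fold higher in operated rats, although the fitted change of Hk2 was 0.03 with normexp correction. Slc16a3, which exports lactate, had 1.18 ± 0.37 (SE), Pkm, pyruvate kinase, 0.77 ± 0.24 (SE) and the glucose transporter gene Slc2a1 0.63 ± 0.24 (SE). Ddit4, a stress gene of the list, was lower in all 4 groups at -0.77.

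Monocyte markers were mixed: 11 of 18 had a higher and 7 a lower average, and 5 were higher in all groups (27.8%, against 16.2% of all genes tested) and none lower, with a median of 0.36, which was -0.16 with STW5 2 ml/kg. Vcan, the proteoglycan versican, was at 1.57 ± 0.40 (SE), with 2.12 in untreated, 1.89 in STW5 0.5 ml/kg, 1.02 in STW5 2 ml/kg and 1.24 in omeprazole rats, and the lectin gene Lgals3 at 1.11 ± 0.36 (SE). Fcgr1a, an Fc receptor, was at 1.00 ± 0.34 and the chemokine receptor gene Ccr2 at 0.74 ± 0.28 (SE). Csf1r, the growth factor receptor of the lineage, was at -0.02, Itgax at -0.02, Ly86 at -0.14 and Spn at -0.31. With the array's 75th percentile as a covariate the median of the list was 0.11, and without untreated rat 4 it was 0.24. Platelet and megakaryocyte genes had 16 of 23 higher in all groups and 2 lower (69.6% and 8.7%, against 16.2% and 19.4% of all genes tested). The median was 0.46, yet only 1 was higher at an unadjusted p below 0.05, against 6.59% of all genes tested. That was Nrgn, neurogranin, at 0.74 ± 0.32 (SE), followed by Gp1bb, a subunit of the von Willebrand factor receptor, at 0.61 ± 0.29 (SE). The platelet score lay above all sham rats in 9 of 16 operated rats, and Ppbp, an abundant platelet chemokine gene, was at -0.53 while Pf4 was at 0.35.

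Eosinophil, basophil and mast cell genes had 5 of 12 higher in all 4 groups and 1 lower (41.7% and 8.33%, against 16.2% and 19.4% of all genes tested). The median was 0.39, which normexp background correction brought to 0.01 and leaving out STW5 0.5 ml/kg rat 2 to 0.25. Il3ra, the receptor for IL-3, was at 0.75 ± 0.26 (SE), or 0.30 by a second probe, and Fcer1g, the signalling chain shared by Fc receptors of many myeloid cells, at 0.63 ± 0.25 (SE). Among the 5 were also Hdc, a member of the neutrophil list too, and Cpa3, well above background on no sham array. Prg2 was at 0.10, Ccr3 at 0.17 and Mcpt1 at 0.21. The 3 members with a lower average were Alox15 at -0.94, lower in all 4 groups, Kit at -0.09 and Mcpt8l3 at -0.02.

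Most T and B cell markers had a lower average than sham, while their list scores overlapped with sham. Mature neutrophil markers, with a median of 0.92, lay above sham in the same groups, and their part in the lymphocyte, red cell and cell cycle values was not tested. Of 24 T cell genes, 14 were lower than sham in all 4 groups and 2 higher (58.3% and 8.33%, against 19.4% and 16.2% of all genes tested), with a median of -0.42 on average; by group it was -0.79 in untreated, -0.23 in STW5 0.5 ml/kg, -0.36 in STW5 2 ml/kg and -0.06 in omeprazole rats. None passed with all arrays in limma, and 4 were lower at an unadjusted p below 0.05, as were 6.28% of all genes tested. Cd4, the coreceptor of helper T cells, was at -0.70 ± 0.24 (SE, adjusted p = 0.245), and Foxp3, the transcription factor of regulatory T cells, at -0.49 ± 0.17 (SE, adjusted p = 0.25). Foxp3 was below all sham rats in 15 of 16 operated rats. Lck, the kinase of the T cell receptor, was at -0.87 ± 0.40 and Ccr7, the homing receptor of naive T cells, at -0.91 ± 0.39 (SE). With omeprazole the change of Ccr7 was -0.03. Cd3e was at -0.33 and Tcf7 at -0.15, and the 2 members higher in all groups were Il7r at 0.37 and Icos at 0.09. The T cell score of untreated rat 2 was -2.12, while the other operated rats lay between -0.89 and 0.43, against 0.00 to 0.63 in sham rats. Without that rat the median of the list was -0.25. The T cell score lay below all sham rats in 7 of 16 operated rats and above all of them in none.

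Of 22 B and plasma cell genes, 11 were lower in all 4 groups and 1 higher (50% and 4.55%, against 19.4% and 16.2% of all genes tested). The median was -0.46 on average, and by group it was -0.59 in untreated, -0.58 in STW5 0.5 ml/kg, -0.51 in STW5 2 ml/kg and -0.03 in omeprazole rats. Cd72, an inhibitory receptor of B cells, was at -1.51 ± 0.46 (SE), with -1.74 in untreated, -1.71 in STW5 0.5 ml/kg, -1.93 in STW5 2 ml/kg and -0.69 in omeprazole rats. The kinase gene Blk was at -1.19 ± 0.45, Ms4a1, which encodes CD20, at -1.0 ± 0.45 and Pax5, the transcription factor of the B lineage, at -0.88 ± 0.42 (SE). On average 5 members of the list were higher and 17 lower. Sdc1 was at 0.95, Tnfrsf17 at 0.64, Xbp1 at 0.49 and Bank1 at 0.09, none with 1 sign in all groups. The member higher in all groups was Prdm1, a transcription factor of plasma cells that other leukocytes also use. It was well above background on 7 of 16 operated arrays and on no sham array. Its mean was at least 1.65-fold higher in operated rats, although the fitted change turned to -0.08 with normexp correction. Without untreated rat 2 the median of the list was -0.28. The list score lay below all sham rats in 9 of 16 operated rats and above all of them in 3. Dntt, the enzyme that adds bases when antigen receptors are joined and a marker of immature lymphocytes, fell by 2.54 without untreated rat 1 (adjusted p = 0.0329 in limma). It was well above background on 2 operated and 2 sham arrays only, and without sham rat 1 its change was -1.29.

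NK and cytotoxic genes had no common direction: 2 of 16 were higher and 1 lower in all groups (12.5% and 6.25%, against 16.2% and 19.4% of all genes tested). The median was 0.06, which normexp correction turned to -0.03. Leaving out 1 array in turn gave -0.14 to 0.45, with the highest value without sham rat 1 and the lowest without sham rat 3. Sham rat 1 had a score of 1.14 and the other sham rats -0.22, -0.44 and -0.86. No member had an unadjusted p below 0.05. Of the members with 1 sign in all groups, the smallest p were those of Cst7, an inhibitor of cathepsins, at 0.27 ± 0.19 and the receptor gene Klrg1 at -0.33 ± 0.43 (SE), a value that spike-in scaling turned to 0.06 and leaving out sham rat 1 to 0.22, against -0.82 without sham rat 4. Genes of dendritic cells and MHC class II had 1 of 14 higher and 2 lower in all groups (7.14% and 14.3%), below the shares of all genes tested. The median was -0.11, which was 0.05 with quantile normalization, 0.27 with spike-in scaling and 0.08 without untreated rat 2. Flt3, a growth factor receptor, was at 0.47 ± 0.28 and turned to -0.03 with normexp correction, and Cd83 was at -0.61 ± 0.46 (SE).

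Red cell genes were lower nearly throughout. Of 41 erythroid and reticulocyte genes, 40 had a lower average in operated rats, 28 were lower in all 4 groups (68.3%, against 19.4% of all genes tested) and 1 was higher. The median was -0.60 on average, and by group it was -1.01 in untreated, -0.74 in STW5 0.5 ml/kg, -0.41 in STW5 2 ml/kg and -0.34 in omeprazole rats. At an unadjusted p below 0.05 there were 5 lower members, against 6.28% of all genes tested, and none passed with or without untreated rat 1. Car1, carbonic anhydrase 1 of red cells, was at -1.32 ± 0.52 (SE, adjusted p = 0.302 in limma), and Klf1, the transcription factor that drives globin, at -0.88 ± 0.35 (SE, adjusted p = 0.304). Epb42, a protein of the red cell membrane, was at -0.97 ± 0.41, Fech, the last enzyme of heme synthesis, at -1.06 ± 0.51 and Slc4a1, the anion exchanger, at -0.85 ± 0.54 (SE). Tal1, a transcription factor of blood stem and erythroid cells, was the member higher in all groups, at 0.87 ± 0.38 (SE).

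The erythroid score varied widely among operated rats, from -1.49 in untreated rat 3 to 0.85 in omeprazole rat 1, and 10 of 16 lay below all sham rats, whose range was 0.24 to 0.82. The brightness of the array moved with it: with the array's 75th percentile as a covariate, the median of the list was -0.06. Spike-in scaling shifted the median of all genes to 0.30, and the erythroid median to -0.22, still below that of all genes.

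Genes of oxidative phosphorylation had 36 of 73 members lower in all 4 groups (49.3%, against 19.4% of all genes tested) and 2 higher, with a median of -0.24, which was 0.15 with spike-in scaling. Besides Timmdc1, the ATP synthase gene Atp5f1b was at -1.0 ± 0.45 and Cycs, cytochrome c, at -0.48 ± 0.22 (SE). Cytosolic ribosomal protein genes had 15 of 78 lower in all groups (19.2%, a share near the 19.4% of all genes tested) and 2 higher, with a median of -0.15 that was 0.05 with quantile normalization and 0.24 with spike-in scaling. Without sham rat 2 the median was -0.04, and without untreated rat 3 it was -0.07. Rps23 was at -0.33 ± 0.19 and Rps2 at -0.42 ± 0.26 (SE), and both belong to families with many near-identical copies. The other Rps23 probes gave -0.85 and -0.39, and Rps23 turned to 0.01 with quantile normalization and 0.05 with spike-in scaling. Genes of NRF2 and oxidative stress defence were split, with 6 of 28 higher and 7 lower in all groups (21.4% and 25%, against 16.2% and 19.4% of all genes tested). The median was -0.11, which quantile normalization and spike-in scaling turned to 0.02 and 0.28. Leaving out 1 array at a time gave -0.15 to -0.05, the value nearest 0 without sham rat 4. Gsr, glutathione reductase, was at 1.17 ± 0.30 (SE, adjusted p = 0.145 in limma), above all sham rats in 15 of 16 operated rats, while Txn1, thioredoxin, was at -0.86 ± 0.37 and Cat, catalase, at -0.80 ± 0.38 (SE).

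Cell cycle genes were lower in 21 of 31 members in all 4 groups and higher in none, with a median of -0.37 that spike-in scaling, which moved all genes, brought to 0.02. The share lower in all groups was 67.7%, against 19.4% of all genes tested. Without sham rat 1 the median was -0.14. With all arrays it was -0.34 in untreated, -0.28 in STW5 0.5 ml/kg, -0.66 in STW5 2 ml/kg and -0.50 in omeprazole rats. At an unadjusted p below 0.05 there were 4 members, Cdc45 among them, and 1 fell without untreated rat 1. Of all genes tested, 6.28% were lower at that threshold and 0.446% fell without untreated rat 1. Cdc20, the activator of the ubiquitin ligase that ends mitosis, was at -1.35 ± 0.39 (SE), with -1.53 in untreated, -1.45 in STW5 0.5 ml/kg, -0.89 in STW5 2 ml/kg and -1.53 in omeprazole rats, and Birc5, which encodes survivin, at -0.95 ± 0.34 (SE). The score was -0.85 at the lowest, -0.04 at the median and 0.58 at the highest of the operated rats, against 1.13, -0.09, -0.02 and 0.23 in the sham rats. Sham rat 1 was the highest of all rats, and 9 of 16 operated rats lay within the sham range. Histone genes had 7 of 21 lower and 2 higher in all groups (33.3% and 9.52%, against 19.4% and 16.2% of all genes tested). The median was -0.09, which was 0.00 with quantile normalization, 0.29 with spike-in scaling, 0.04 without sham rat 1 and -0.22 without sham rat 3. H2bc1 was at -1.13 ± 0.43 and H3f3b, a variant histone gene active outside division, at 0.51 ± 0.22 (SE).

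Interferon-stimulated genes went both ways in the same rats, with 14 of 40 higher and 10 lower in all 4 groups (35% and 25%, against 16.2% and 19.4% of all genes tested) and a median of 0.24. Herc6, a ubiquitin ligase of that response, was at -1.38 ± 0.40 (SE), with -1.73 in untreated, -1.67 in STW5 0.5 ml/kg, -1.04 in STW5 2 ml/kg and -1.10 in omeprazole rats, and Irf7, the factor that amplifies interferon, at -0.87 ± 0.41 (SE). Oas1a, which makes the activator of RNase L, was at 1.13 ± 0.47 (SE). Ifih1, the RNA sensor MDA5, was well above background on 9 of 16 operated arrays and on no sham array. Its mean was at least 2.28-fold higher in operated rats, although the fitted change was 0.02 with normexp correction. Of 16 circadian clock genes, 5 were higher and 4 lower in all groups (31.2% and 25%, against 16.2% and 19.4% of all genes tested). The median of -0.16 was 0.22 with spike-in scaling and -0.08 without sham rat 4. Clock and Per2 were each well above background on 8 of 16 operated arrays and on no sham array. They therefore passed the filter through operated arrays alone. Their means were at least 1.75-fold and at least 2.14-fold higher in operated rats. With normexp correction the fitted change of Clock turned to -0.06. Nfil3, a transcriptional repressor of the clock, was at 0.93 ± 0.28 (SE, adjusted p = 0.175 in limma). The labels give no hour of sampling.

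**Figure D4:**
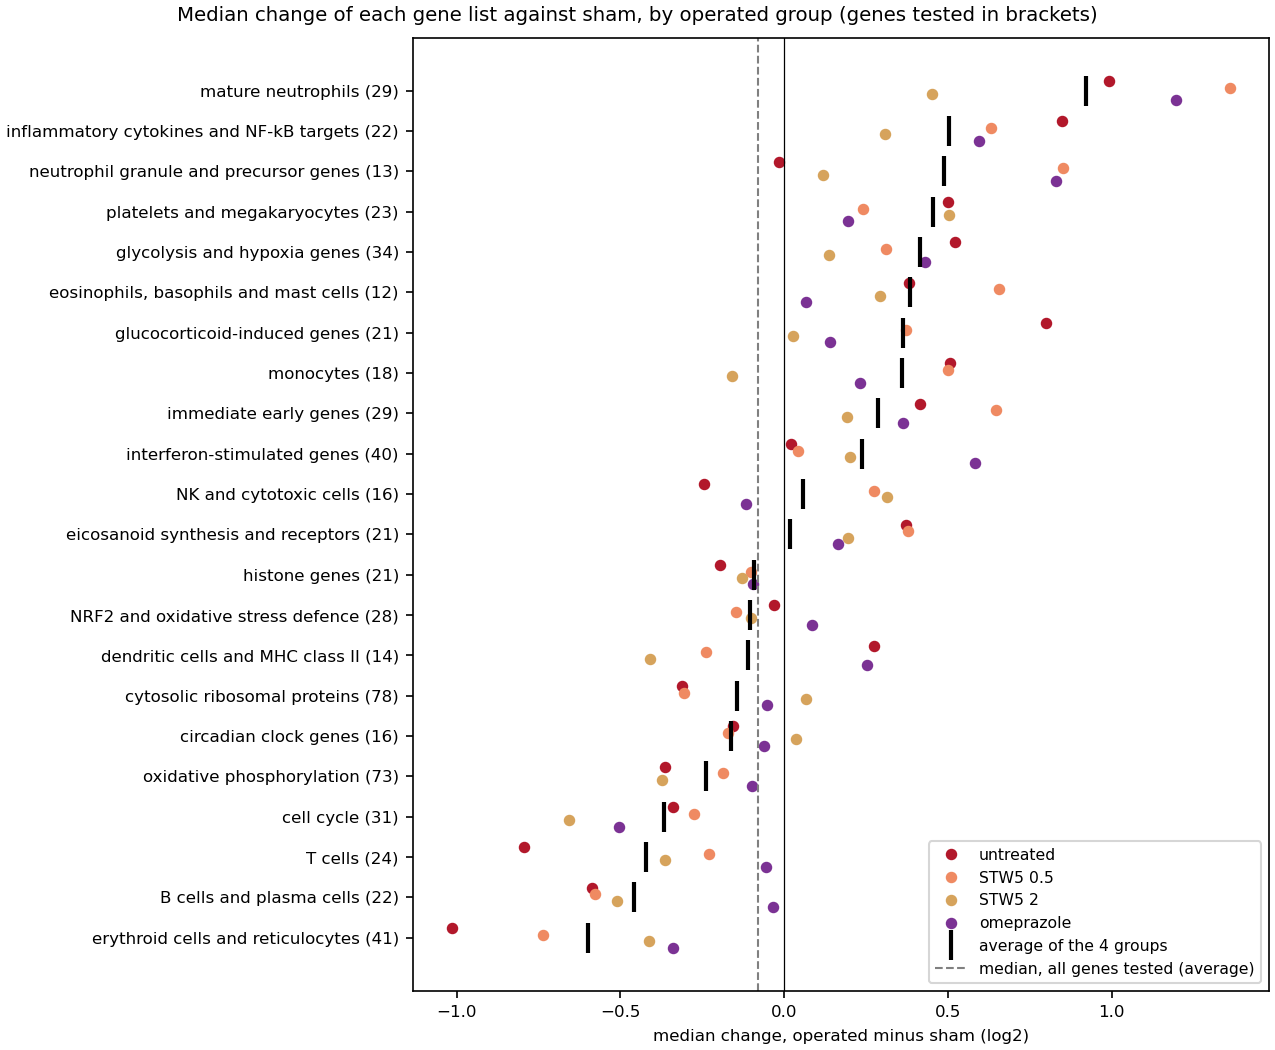
Median change from sham of each gene list in each operated group (points) and for the average of the groups (black bars), in log2 units; the dashed line is the median over all genes tested (-0.08) and the groups share the sham arrays. Mature neutrophil genes lie farthest to the right (0.92) and erythroid genes farthest to the left (-0.60); with spike-in scaling all values shift to the right, and the bars of oxidative phosphorylation, ribosomal, clock, NRF2, histone, dendritic and cell cycle genes cross 0.

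The operated groups were also compared with each other. The moderated F test of limma over the 4 operated groups called 997 genes (6.55%). Of these, 126 (0.827% of all genes tested) had 1 sign against sham in all groups, while 5419 of all genes tested (35.6%) had 1 sign. The 126 are thus a smaller share of the 997 than the 5419 are of all genes tested. In 109 of these 126 the omeprazole group had the largest difference from sham, in 10 STW5 2 ml/kg, in 4 untreated and in 3 STW5 0.5 ml/kg. Treatment and slide cannot be told apart here. RT1-T24-4 had the smallest adjusted p (3.4e-07), then Glul (2.13e-06) and Ndufb4l1 (1.71e-05), whose change was -3.19 with omeprazole against -0.56 to -0.30 in the other groups. These 3 were chosen after their values were seen. For Clec7a, Prok2, Cxcr2 and Cdc45 the adjusted p of that test was 0.995, 0.838, 0.807 and 0.701, which does not show that the groups were alike.

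Among all genes that passed without untreated rat 1, named after their values were seen, Rtp3, a chaperone of chemosensory receptors, rose by 2.48 (adjusted p = 0.00563 in limma), with 1 of 4 sham arrays well above background. With all arrays its change was 2.27 ± 0.50 (SE). Rims3, a protein of vesicle release, fell by 1.31 (adjusted p = 0.0152) and Cers4, a ceramide synthase, by 1.35 (adjusted p = 0.02). With all arrays these were -1.19 ± 0.31 and -1.21 ± 0.35 (SE), and in both genes untreated rat 1 and STW5 0.5 ml/kg rat 1 overlapped with sham.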

How the data were processed

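Blood RNA of 20 rats was labelled with Cy3, per the labels' protocols, and hybridised to 1-colour Agilent arrays of 62976 spots. The authors' scanner files hold intensity values, background-subtracted and detrended by Agilent Feature Extraction 10.7.3.1 with rn4 probe positions, per the file headers. The deposited value table holds each signal as a ratio to its array's median, as a comparison with the scanner files found; its processing is not given in the sources used here. Of its columns, 12 follow their own array and 8, all STW5, follow the array titled with the other dose. It was used only as an alternative.

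From the deposited intensities, control spots and outlier flags were left out, spots of a probe averaged, log2 taken and the log2 of the array's 75th percentile subtracted. The filter kept 17237 of 30367 probes, those with a signal well above background on 4 arrays or more, and the brightest represented its gene. Of the probes, 21385 matched the reference gene list, and 10899 of the 15232 genes tested have a symbol. limma 3.58.1 in R 4.3.3 fitted 5 group means with 15 residual degrees of freedom. Operated against sham was the mean of the 4 operated group means minus the sham mean, two-sided, with Benjamini-Hochberg adjustment over all genes tested and a threshold of 0.05; a moderated F test compared the operated groups. P-values measure the spread between rats. The procedure was tested on simulated data.

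Named were the 6 shared-sign genes with the smallest p in each direction, since none passed, and in each list the 2 shared-sign members with the smallest p; others are given as list members or as chosen after their values were seen. The members of the comparison and all lists were chosen with earlier results of these data known. Alternatives covered background correction, scaling, filters, probes, slides, groups, weights, the replicate number as a block and each array left out; leaving out untreated rats 1 and 2 together, and the slide as a random block with 2 group means, were added after seeing the data. Labels with shared replicate numbers did not pair the rats. Sequences and gene names come from RefSeq on GRCr8. Some list members are not reported here.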

Additional observations from a re-analysis of the deposited data

Results flagged for a closer look

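In 9 of 175 sets of 4 arrays, each a gene level or list score in 1 group, 1 array lay apart from the other 3 by Dixon's test, where about 1 in 20 sets would do so by chance. Untreated rat 1 lay apart for Clec7a, at -1.015 against 0.94 to 1.25 in the other untreated rats, and for Sgms2, at -2.912 against -0.82 to -0.60. STW5 2 ml/kg rat 4 lay apart in the scores of mature neutrophils, at -1.162 against -0.12 to -0.03, of eosinophils, basophils and mast cells, at -0.445 against -0.04 to 0.01, and of eicosanoid genes, at -0.314 against -0.04 to 0.00. STW5 0.5 ml/kg rat 3 had a Gk level of 0.561 against -0.31 to -0.18 in its group. Omeprazole rat 3 had a score of NK and cytotoxic genes of 0.222 against -0.53 to -0.44, and omeprazole rat 4 a Cdc45 level of -0.557 against -0.10 to -0.05. Sham rat 2 had a score of ribosomal protein genes of 0.364 against -0.04 to 0.01 in the other sham rats.

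The size of the difference from sham differed among the operated groups, by the moderated F test of limma, for Mogat2 (adjusted p = 0.0258), Timmdc1 (adjusted p = 0.0334), RT1-T24-4 (adjusted p = 3.4e-07), Glul (adjusted p = 2.13e-06) and Ndufb4l1 (adjusted p = 1.71e-05). For the last 3 genes the omeprazole group, alone on its slide, was the lowest.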

How the results depend on the processing

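In limma no gene passed in operated against sham under the other background correction, scalings, filters, probes and slide terms tried, with the authors' value table, within slide 1 or without omeprazole. Of each pair of counts here the first is genes higher and the second genes lower than sham. Array weights called 1715 and 2288 (3228 with shared sign), with a weight of 16.9 for omeprazole rat 2; single groups then gave 2620 and 3918 in untreated, 442 and 211 in STW5 0.5 ml/kg, 310 and 317 in STW5 2 ml/kg and 2473 and 2487 in omeprazole rats, and 8260 differed among the groups. Without both STW5 groups 5 and 129 passed (95 shared; 4650 and 5946 shared in sign), with 81 higher in omeprazole, 558 differing and 60 and 42 without overlap. Without untreated rats 1 and 2, an alternative chosen after seeing the data, 506 and 401 passed (845 shared), with 1736 and 2670 in untreated, 40 and 1 in STW5 0.5 ml/kg, 2 and 4 in STW5 2 ml/kg, 366 higher in omeprazole, 4444 differing and 92 and 11 without overlap. The 2 genes that fell in untreated rats became 0 with normexp correction, quantile normalization, the percentile over probes above background on all arrays, spike-in scaling, no filter, a filter of 16 arrays, without STW5, without omeprazole, with the replicate block and with the percentile as a covariate, while testing every probe gave 1 higher. Genes higher in omeprazole numbered 67 with normexp, 82 with spike-in scaling (238 lower) and 57 with no filter. Genes differing among groups numbered 5255 with spike-in scaling and 0 without omeprazole. Shared lower genes numbered 396 with spike-in scaling, which also called 2 higher in STW5 0.5 ml/kg, and 6322 with no filter. The covariate called 22 higher and 14 lower in STW5 2 ml/kg. Genes without overlap numbered 7 higher and 4 lower with normexp, 217 and 230 within slide 1 (fewer arrays), and among lower ones 1 with quantile normalization, 0 with spike-in scaling, 4 over every probe and 14 without omeprazole. Values that changed sign were Prdm1 (-0.075), Flt3 (-0.030) and Clock (-0.058) with normexp, Rps23 with quantile (0.009) and spike-in scaling (0.054), and Klrg1 with spike-in scaling (0.055). The cause was not tested. Leaving out each array in turn gave 0 to 246 higher and 0 to 68 lower (0 to 302 shared), 0 to 1092 and 0 to 1018 in untreated, 0 to 1 higher in STW5 0.5 ml/kg, 0 to 2 and 0 to 3 in STW5 2 ml/kg, 16 to 260 higher in omeprazole, 624 to 2794 differing, 16 to 75 and 2 to 43 without overlap, and -0.823 to 0.222 for Klrg1; the highest counts for operated rats came without untreated rat 1. Replicate numbers did not pair the rats: same-numbered deviations correlated at -0.438 to 0.59 and 5 of 20 arrays were nearest their own number; with the replicate block 0 genes passed (smallest adjusted p = 0.0737). The correlation within slides could not be estimated with 5 group means and was 0.0443 with 2. Genes not above background on sham arrays passed the filter through operated arrays alone and have only a bound.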
